A study of Cucumis sativus with 6 samples.

Results

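The WRKY and the ethylene-responsive transcription factors of cucumber (Cucumis sativus) flower buds are described here, as 31 genes among the 1589 of the deposited table. A gene was taken as a member when its Swiss-Prot or NR protein description named a WRKY factor or an ethylene-responsive transcription factor, which 32 genes did. One of these, Csa1G340430, was left out by the rule. The 31 members comprised 15 WRKY genes and 16 ethylene-responsive factor genes. RNA had been sequenced from whole female buds taken 7 days before anthesis, with 3 libraries from buds homozygous for the Cshec2 mutation (Cshec2-/-) and 3 from wild type buds, and the design text calls the libraries of each genotype biological replicates. How the mutation was made, and how many lines or plants stand behind each library, is not given in the sources used here. The series title places CsHEC2, the mutated gene, in the formation of fruit warts and in cytokinin biosynthesis. The question addressed was how both families of regulators differ between Cshec2 and wild type buds.

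WRKY factors form a large plant family that carries a zinc-finger DNA-binding domain and binds W-box elements in promoters. They are known mainly as regulators of immunity, senescence and responses to stress, and they act downstream of mitogen-activated protein kinase cascades. Ethylene-responsive factors share the AP2 DNA-binding domain. They comprise a GCC-box-binding type, often induced by ethylene, jasmonate, wounding or pathogens, and a type related to the dehydration-responsive DREB factors, while the WIN1/SHINE branch controls wax and cutin of the epidermis. The WRKY domain was listed in the Pfam column for 15 of 15 WRKY genes and the AP2 domain for 15 of 16 ethylene-responsive factor genes, the exception being Csa2G001000. A name such as WRKY33 below is the protein that a cucumber gene resembles most in Swiss-Prot (from Arabidopsis unless said otherwise), not its established identity. The subgroups used below rest on the known place of those proteins in their families, and the genes were placed in them with the values already known.

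The values are the authors' normalised expression signal, whose unit the table does not name, so levels are not compared between genes and the read depth is unknown. Over all listed genes they summed to between 23592 and 24173 in the Cshec2 libraries and to between 41126 and 59342 in the wild type libraries. Every gene had been listed by the authors as differing between the genotypes, and none (0) of the descriptions names HECATE, so the mutated gene itself was not analysed here as a check of the labels. The tests used limma on log2(value + 1), with Benjamini-Hochberg adjustment across all 1589 listed genes and a threshold of 0.05. Log2 changes are Cshec2 minus wild type, and on this scale they understate the change of genes with low values. In whole buds, fewer cells of a type and less RNA per cell cannot be told apart.

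Both families were lower in Cshec2 buds. Of the 31 members, 29 were called lower and 0 higher, against 74.3% called lower, 18.4% called higher and 92.7% called in either direction among all listed genes. Without Cshec2 library 1, 2 or 3 the members called lower were 20, 19 and 18. Among all listed genes 54.1%, 51.8% and 53.5% were then called lower. The WRKY genes among those members were 12 of 15 each time. The ethylene-responsive genes among them were 8, 7 and 6 of 16, each time a smaller share than that of all listed genes. All 15 WRKY genes passed, with a median log2 change of -1.05, and so did 14 of the 16 ethylene-responsive factor genes, with a median over the 16 of -1.01. The median over all listed genes was -0.77. Changes of at least 2-fold on this scale were called for 10 of 15 WRKY genes (66.7%) and for 8 of 16 ethylene-responsive factor genes (50.0%), against 32.0% of all listed genes that were lower by as much. The Cshec2 and wild type ranges did not overlap for 15 of 15 WRKY genes and for 12 of 16 ethylene-responsive factor genes, against 75.7% of all listed genes with every Cshec2 library below every wild type library. The authors' deposited table lists 31 of 31 members as down, as are 81.6% of all genes there, with log2 fold changes between -2.45 and -0.63 for WRKY genes and between -1.66 and -0.69 for ethylene-responsive factor genes.

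These counts depended on how the libraries are scaled. Median-of-ratios scaling over the table moved the median of all listed genes by 0.74, to -0.02 on the log2 scale. By construction this setting pulls the centre of the selected genes to about 0, and with it the many genes listed as down. After it, 6 of 31 members were called lower (19.4%) and 0 higher, against 14.2% and 18.4% of all listed genes. Those 6 were 5 of 15 WRKY genes (33.3%), above the 14.2% of all listed genes, and 1 of 16 ethylene-responsive factor genes (6.25%), below it. The family medians were -0.41 and -0.22.

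**Figure D1:**
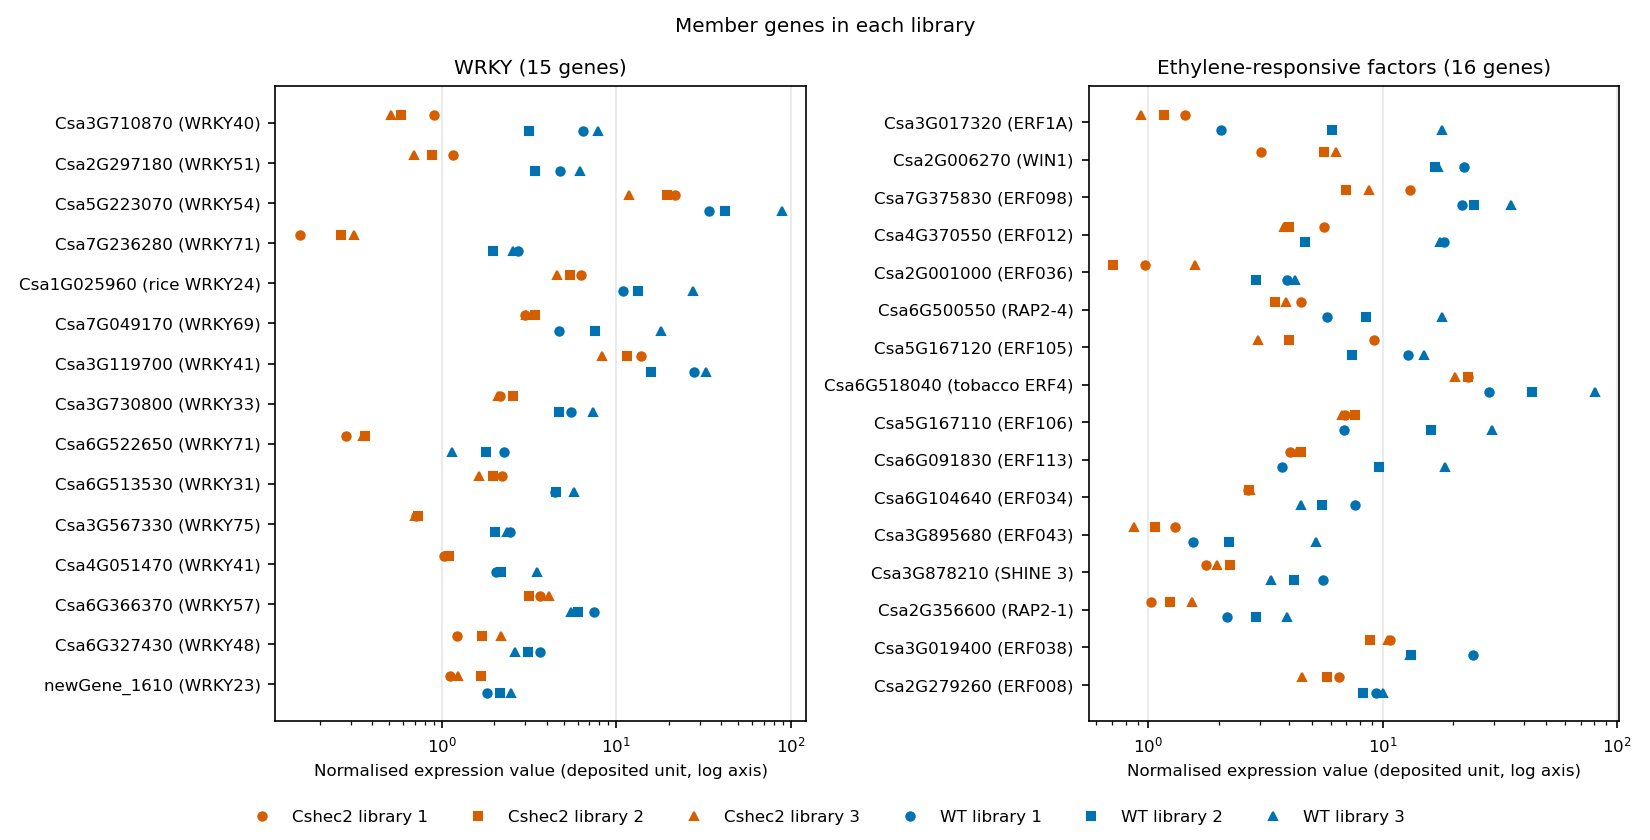
Normalised expression value (deposited unit, log axis) of the 15 WRKY genes (left) and 16 ethylene-responsive factor genes (right) in each of the 3 Cshec2 libraries (orange) and 3 wild type libraries (blue), with one marker shape per library number. The colours are separate in all WRKY rows, while they meet in 4 rows on the right, those of ERF012, ERF105, ERF106 and ERF113.

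Among WRKY genes, WRKY40 belongs to group IIa, whose Arabidopsis members repress defence and abscisic acid responses. Csa3G710870, described as WRKY40, measured 0.904, 0.584 and 0.510 in Cshec2 libraries 1 to 3, against 6.41, 3.17 and 7.85 in wild type libraries 1 to 3. Its lowest wild type library lay 3.51-fold above its highest Cshec2 library. The log2 change was -1.97 (SE 0.29, limma adjusted p = 0.0023), the most negative of the 31 at this pseudocount, and ranked 104 among the 1589 listed genes. At a pseudocount of 0.1 it was -2.887, level with the -2.891 of Csa7G236280, a WRKY71-like gene described below. WRKY33, of group I, is required in Arabidopsis for resistance to necrotrophic fungi and is a target of MAP kinase phosphorylation. The WRKY33-like gene Csa3G730800 had values of 2.15, 2.55 and 2.10 in Cshec2 buds, against 5.50, 4.67 and 7.31 in wild type buds, and fell by 1.05 (SE 0.19, limma adjusted p = 0.00416). The Cshec2 mean of this gene was 38.9% of the wild type mean. In rice, WRKY24 represses gibberellin and abscisic acid responses. Csa1G025960, which resembles it, measured 6.26, 5.45 and 4.56 in Cshec2, against 10.9, 13.3 and 27.5 in wild type, where library 3 stood well above the others. Csa6G513530, described as WRKY31 of group IIb, was more even, with 2.21, 1.97 and 1.63 in Cshec2 and 4.43, 4.52 and 5.72 in wild type. Both were called lower (log2 change -1.40, SE 0.33, limma adjusted p = 0.00893, and log2 change -1.003, SE 0.17, limma adjusted p = 0.00319). Csa7G049170, described as WRKY69 of group IIe, measured 3.00, 3.44 and 3.03 in Cshec2, against 4.70, 7.52 and 18.0 in wild type. Its highest wild type library was 3.84-fold its lowest, the most uneven of the WRKY genes. It passed with all 6 libraries (log2 change -1.23, SE 0.42, limma adjusted p = 0.027), but not without any 1 of the Cshec2 libraries or without wild type library 2 (adjusted p between 0.0544 and 0.0724). In all 5 genes of these groups wild type library 3 was the highest.

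Group IIc supplied 7 of the 15 WRKY genes, and 4 of these 7 were, beside the WRKY40-like gene, the WRKY genes still called lower after median-of-ratios scaling. WRKY71 promotes shoot branching and flowering in Arabidopsis, and a pair of cucumber genes were described as WRKY71. Csa7G236280 measured 0.153, 0.263 and 0.315 in Cshec2 libraries, against 2.74, 1.96 and 2.55 in wild type libraries. Its Cshec2 mean was 10.1% of the wild type mean, and the lowest wild type library lay 6.23-fold above the highest Cshec2 library (log2 change -1.45, SE 0.13, limma adjusted p = 0.000753). Csa6G522650 had 0.283, 0.361 and 0.355 in Cshec2 and 2.27, 1.79 and 1.15 in wild type, a Cshec2 mean of 19.2% of the wild type mean (log2 change -1.02, SE 0.16, limma adjusted p = 0.00293). How reads were assigned between these similar genes is not stated, which leaves the value of each uncertain. WRKY51 acts with WRKY50 in the repression of jasmonate signalling in Arabidopsis. The WRKY51-like gene Csa2G297180 fell to 1.16, 0.876 and 0.696 in Cshec2, against 4.76, 3.41 and 6.21 in wild type, by 1.58 on the log2 scale (SE 0.21, limma adjusted p = 0.00172). WRKY75 is known in Arabidopsis for roles in leaf senescence and in phosphate starvation. Its counterpart Csa3G567330 had the most even Cshec2 values among WRKY genes, and its wild type values were close too, with 0.709, 0.732 and 0.703 in Cshec2 and 2.44, 2.03 and 2.36 in wild type (log2 change -0.93, SE 0.11, limma adjusted p = 0.00123).

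The other 3 group IIc genes had the smallest differences of the family. WRKY48 is a repressor of basal defence in Arabidopsis, and Csa6G327430, described as WRKY48, measured 1.22, 1.70 and 2.18 in Cshec2, against 3.66, 3.10 and 2.62 in wild type. Its highest Cshec2 and lowest wild type libraries were only 1.20-fold apart. The call (log2 change -0.62, SE 0.19, limma adjusted p = 0.0184) was lost without Cshec2 library 1 or 2 (adjusted p 0.0625 at most). WRKY57 acts in drought tolerance and in jasmonate-induced senescence in Arabidopsis. Csa6G366370, described as WRKY57, measured 3.64, 3.17 and 4.12 in Cshec2 and 7.49, 6.07 and 5.51 in wild type (log2 change -0.66, SE 0.18, limma adjusted p = 0.013). It did not pass without Cshec2 library 2 (adjusted p = 0.0545). Cucumis_sativus_newGene_1610 is described as WRKY23, an auxin-responsive factor of Arabidopsis roots, in Swiss-Prot and as WRKY68 in NR. It measured 1.11, 1.67 and 1.24 in Cshec2 and 1.82, 2.14 and 2.51 in wild type, the smallest log2 change of the 31 at -0.43 (SE 0.15, limma adjusted p = 0.0302). That call was lost without Cshec2 library 1 or 3 or wild type library 2 or 3 (adjusted p between 0.0687 and 0.0958). After median-of-ratios scaling the log2 changes of these 3 genes turned to 0.02, 0.11 and 0.15, and none of them passed. In 5 of the 7 group IIc genes wild type library 1 was the highest.

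Group III, which in Arabidopsis includes modulators of salicylic acid responses, supplied 3 genes. WRKY54 acts there with WRKY70 as a negative regulator of salicylic acid synthesis and of senescence. The WRKY54-like gene Csa5G223070 fell to 21.8, 19.5 and 11.8 in Cshec2 libraries, against 33.9, 41.9 and 88.9 in wild type libraries, a log2 change of -1.50 on this scale (SE 0.39, limma adjusted p = 0.0121). Csa3G119700, described as WRKY41 in Swiss-Prot and as WRKY46 in NR, measured 13.9, 11.6 and 8.33 in Cshec2 and 27.8, 15.8 and 32.7 in wild type. Here Cshec2 library 1 and wild type library 2 came within 1.14-fold of each other, and the call (log2 change -1.07, SE 0.30, limma adjusted p = 0.0153) was lost without Cshec2 library 3 (adjusted p = 0.0537). WRKY41 controls seed dormancy in Arabidopsis. Csa4G051470, the other gene described as WRKY41, was tight in Cshec2, at 1.03, 1.10 and 1.08, against 2.04, 2.19 and 3.50 in wild type (log2 change -0.77, SE 0.18, limma adjusted p = 0.00798). As in the group I and IIe genes, wild type library 3 was the highest in 3 of 3.

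**Figure D2:**
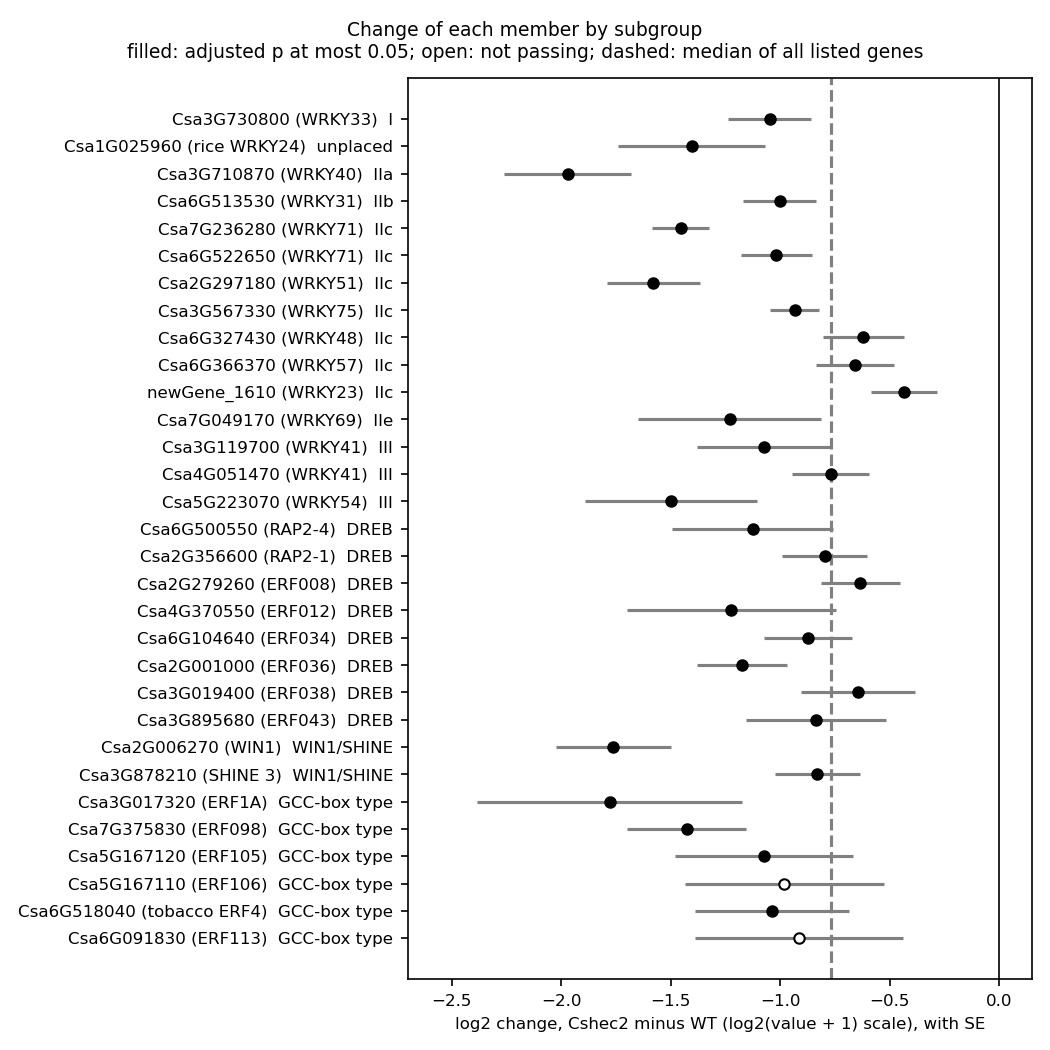
Log2 change (Cshec2 minus wild type, log2(value + 1) scale) of each of the 31 members, ordered by family and subgroup, with bars of 1 SE. All points lie below 0, the open points of ERF106 and ERF113 did not pass, and the dashed line is the median of all listed genes at -0.77.

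The WIN1/SHINE genes were the ethylene-responsive factors with an epidermal role. WIN1 and SHINE 3 activate wax and cutin biosynthesis in Arabidopsis. Csa2G006270, described as WIN1, measured 3.01, 5.59 and 6.30 in Cshec2, against 22.3, 16.8 and 17.2 in wild type. Every wild type library was at least 2.66-fold above every Cshec2 library, and the gene fell by 1.76 on the log2 scale (SE 0.26, limma adjusted p = 0.00238). It was the 1 ethylene-responsive factor gene still called lower after median-of-ratios scaling (log2 change -0.93, limma adjusted p = 0.0402). Csa3G878210, described as SHINE 3, measured 1.76, 2.23 and 1.96 in Cshec2 and 5.58, 4.17 and 3.34 in wild type (log2 change -0.83, SE 0.19, limma adjusted p = 0.00834). In both genes wild type library 1 was the highest. Csa1G340430, the WIN1-described gene left out by the rule, had Cshec2 values of 2.14, 2.60 and 1.62, against 8.87, 7.30 and 5.76 in wild type.

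In the 6 genes of the GCC-box type the highest wild type library was between 1.61-fold and 8.83-fold the lowest. ERF1A is an activator of GCC-box defence genes in Arabidopsis. Csa3G017320, described as ERF1A, measured 1.43, 1.16 and 0.925 in Cshec2, against 2.03, 6.10 and 18.0 in wild type. Its highest wild type library was 8.83-fold its lowest, the widest spread of all 31 members, and its Cshec2 mean was 13.5% of the wild type mean. The log2 change of -1.78 (SE 0.60, limma adjusted p = 0.0271) was -0.49 against wild type library 1 alone and -3.13 against library 3 alone, and the authors' deposited table gives -0.97. The call was lost without any 1 of the Cshec2 libraries or without wild type library 2 (adjusted p between 0.0621 and 0.0727). Csa6G518040, described as tobacco ERF4, a GCC-box-binding factor, measured 23.0, 23.2 and 20.3 in Cshec2 and 28.5, 43.6 and 80.6 in wild type. Its pattern was the same in kind, with a log2 change of -1.04, SE 0.35 and limma adjusted p = 0.0267, and it did not pass without any 1 of the Cshec2 libraries or without wild type library 2 (adjusted p between 0.0602 and 0.0761). Csa7G375830, described as ERF098, a regulator of ascorbate synthesis in Arabidopsis, was the GCC-box type gene whose call held with each library left out. It measured 13.1, 6.94 and 8.76 in Cshec2 and 21.8, 24.6 and 35.2 in wild type (log2 change -1.43, SE 0.27, limma adjusted p = 0.00482).

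Csa5G167120 and Csa5G167110, described as ERF105 and ERF106, carry neighbouring identifiers, and ERF105 is known in Arabidopsis for a role in cold tolerance. Csa5G167120 measured 9.14, 3.97 and 2.93 in Cshec2, against 12.8, 7.37 and 15.1 in wild type. Cshec2 library 1 thus exceeded wild type library 2, and the call (log2 change -1.08, SE 0.41, limma adjusted p = 0.0382) was lost without Cshec2 library 2 or 3 or wild type library 1 or 3 (adjusted p between 0.0638 and 0.119). Csa5G167110 was steady in Cshec2, at 6.91, 7.64 and 6.72, against 6.84, 16.2 and 29.3 in wild type. Wild type library 1 thus lay within the Cshec2 range, and the gene did not pass (log2 change -0.98, SE 0.45, limma adjusted p = 0.0705). ERF113 acts in tissue repair after wounding in Arabidopsis. The ERF113-like gene Csa6G091830 measured 4.04, 4.50 and 4.31 in Cshec2 and 3.72, 9.66 and 18.5 in wild type, so that wild type library 1 was below all Cshec2 libraries, and it did not pass (log2 change -0.91, SE 0.48, limma adjusted p = 0.0986). Without wild type library 1 both of these genes passed. Against library 1 alone their log2 changes were 0.04 and 0.16.

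DREB-type genes made up the other 8 ethylene-responsive factors. All 8 were called lower, where 74.3% of all listed genes were. After median-of-ratios scaling 0 of the 8 were called, against 14.2% called lower and 18.4% called higher of all listed genes. RAP2-4 and RAP2-1 act in drought responses in Arabidopsis, RAP2-1 as a repressor. Csa6G500550, described as RAP2-4, measured 4.46, 3.48 and 3.85 in Cshec2, against 5.81, 8.52 and 18.0 in wild type. Its call (log2 change -1.13, SE 0.37, limma adjusted p = 0.0239) did not hold without any 1 of the Cshec2 libraries (adjusted p between 0.0529 and 0.0697). Csa2G356600, described as RAP2-1, measured 1.02, 1.23 and 1.53 in Cshec2 and 2.16, 2.87 and 3.89 in wild type (log2 change -0.80, SE 0.20, limma adjusted p = 0.00972). Csa2G279260, described as ERF008, was close in both genotypes, at 6.49, 5.79 and 4.52 in Cshec2 and 9.36, 8.21 and 10.0 in wild type, and its log2 change of -0.64 (SE 0.18, limma adjusted p = 0.0153) did not pass without Cshec2 library 3 (adjusted p = 0.0597) and turned to 0.18 after median-of-ratios scaling. In Csa4G370550, described as ERF012, wild type library 2 stood apart from the other wild type libraries. The gene measured 5.64, 3.98 and 3.81 in Cshec2 and 18.2, 4.67 and 17.5 in wild type (log2 change -1.22, SE 0.48, limma adjusted p = 0.0423). Left out in turn, any library but wild type library 2 took the call away (adjusted p between 0.0685 and 0.112), and against wild type library 2 alone the log2 change was -0.07.

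The DREB-type genes described as ERF034, ERF036, ERF038 and ERF043 belong to the branch that includes the Arabidopsis growth regulator TINY. Csa6G104640, described as ERF034, was nearly constant in Cshec2, at 2.66, 2.68 and 2.70, against 7.59, 5.51 and 4.47 in wild type (log2 change -0.87, SE 0.20, limma adjusted p = 0.00801). Csa2G001000, described as ERF036 and without an AP2 domain in the Pfam column, measured 0.963, 0.703 and 1.58 in Cshec2 and 3.91, 2.86 and 4.22 in wild type (log2 change -1.17, SE 0.21, limma adjusted p = 0.00379). Both calls held with each library left out. Csa3G019400, described as ERF038, measured 10.7, 8.85 and 10.5 in Cshec2 and 24.4, 13.2 and 13.1 in wild type, where library 1 alone was high, and its log2 change was 0.21 after median-of-ratios scaling. Csa3G895680, described as ERF043, measured 1.30, 1.07 and 0.872 in Cshec2 and 1.55, 2.21 and 5.18 in wild type, where library 3 alone was high. These 2 calls were close to the threshold (log2 change -0.64, SE 0.26, limma adjusted p = 0.0465, and log2 change -0.84, SE 0.32, limma adjusted p = 0.0401). Each was lost without any 1 of the Cshec2 libraries, the first also without wild type library 1 and the other also without wild type library 2 (adjusted p between 0.0621 and 0.132 for ERF038 and between 0.0648 and 0.106 for ERF043).

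The wild type libraries therefore ordered the members in more than 1 way. Wild type library 3 was the highest for 21 of the 31 members and library 1 for 10, while library 2 was the highest for 0. Over all listed genes these shares were 51.6% for library 3 and 38.6% for library 1. Library 3 was the highest in 6 of 6 GCC-box type genes, 3 of 3 group III genes and 5 of 5 genes of WRKY groups other than IIc and III, counting the rice WRKY24-like gene. Library 1 was the highest in 2 of 2 WIN1/SHINE genes and 5 of 7 group IIc genes. Library 3 was at least 2-fold above library 1 for 4 of the 6 GCC-box type genes, for 9 of all 31 members and for 20.2% of all listed genes. Wild type was the more variable genotype for 24 of the 31 members, and for 1247 of the 1589 listed genes, which is a like share. Members had a median SD of the log2 values of 0.15 in Cshec2 and 0.35 in wild type, against 0.13 in Cshec2 and 0.28 in wild type over all listed genes.

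**Figure D3:**
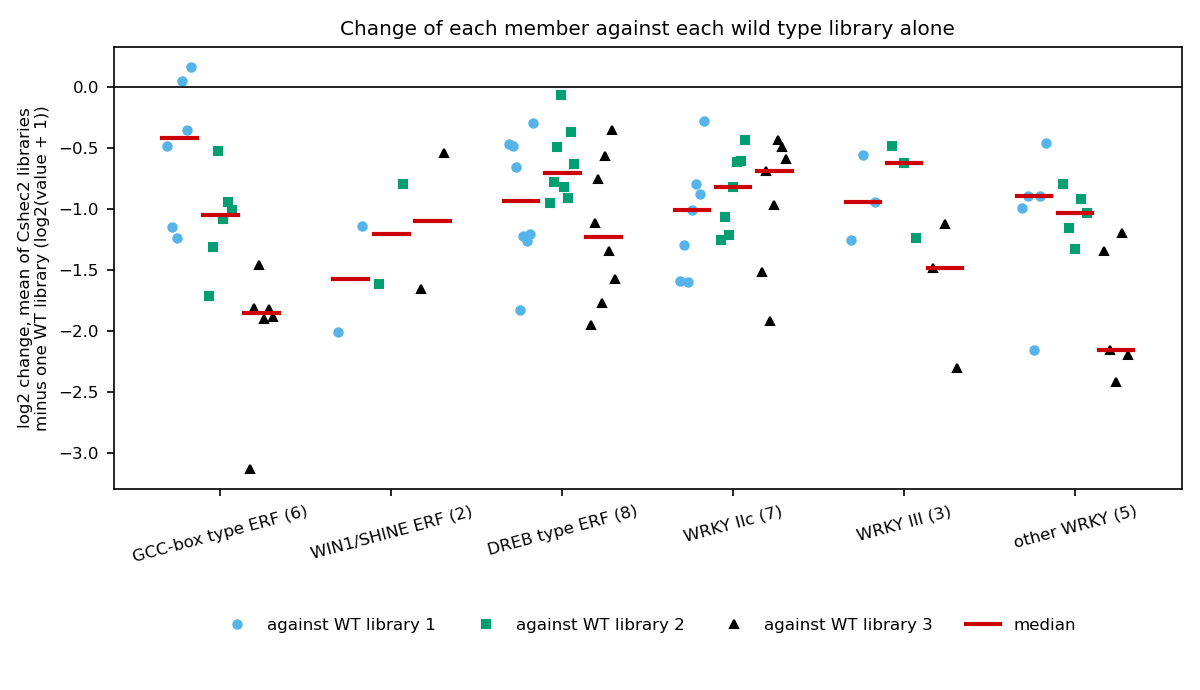
Log2 change of each member (mean of the 3 Cshec2 libraries minus 1 wild type library, log2(value + 1) scale) against wild type library 1, 2 or 3 alone, by subgroup, with red bars at the medians. The median of the GCC-box type genes moves from -0.42 against library 1 to -1.85 against library 3. The medians of the group IIc WRKY genes stay between -1.01 and -0.69, while single genes of that group lie between -1.92 and -0.28.

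Set against each wild type library alone, the families kept their direction in nearly every gene. The WRKY median was -0.94 against library 1, -0.92 against library 2 and -1.35 against library 3. The ethylene-responsive factor medians were -0.90, -0.87 and -1.62, and those of all listed genes -0.66, -0.68 and -0.90. The Cshec2 mean was at most 50% of library 1 for 11 of 15 WRKY genes and 8 of 16 ethylene-responsive factor genes. It was at most 50% of library 3 for 12 genes of each family. Over all listed genes it was so for 665 of 1589 against library 1 and 903 of 1589 against library 3. Only ERF106 and ERF113, against library 1, had log2 changes above 0. A comparison with 1 wild type library takes its spread from the Cshec2 libraries alone and assumes that the single library varies like them.

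In each of the 4 other transcription factor families with at least 8 listed genes, both higher and lower genes were called. Among all listed genes 18.4% were called higher and 74.3% lower, and the MYB share called lower, 75.0%, was near the latter. The NAC family held 1 higher and 8 lower genes of 9, the MYB family 3 higher and 15 lower of 20, the homeobox-leucine zipper family 3 and 6 of 9 and the bHLH family 4 and 3 of 8. Their median log2 changes, in the same order, were -1.45, -0.83, -0.71 and -0.20, and -0.63, -0.07, 0.08 and 0.50 after median-of-ratios scaling. The NAC genes thus had a more negative median than either family described here. In smaller families all calls were lower too, in 3 of 3 MADS, 3 of 3 heat stress factor, 2 of 2 ZAT zinc finger and 1 of 1 GRAS genes, while 2 of 2 YABBY genes were higher and the 4 bZIP genes were 2 higher and 2 lower. Wild type library 3 was the highest in 7 of 9 NAC genes and 7 of 20 MYB genes. Whether any of these families differs from the WRKY or ethylene-responsive genes was not tested, since genes of a family are not replicates.

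**Figure D4:**
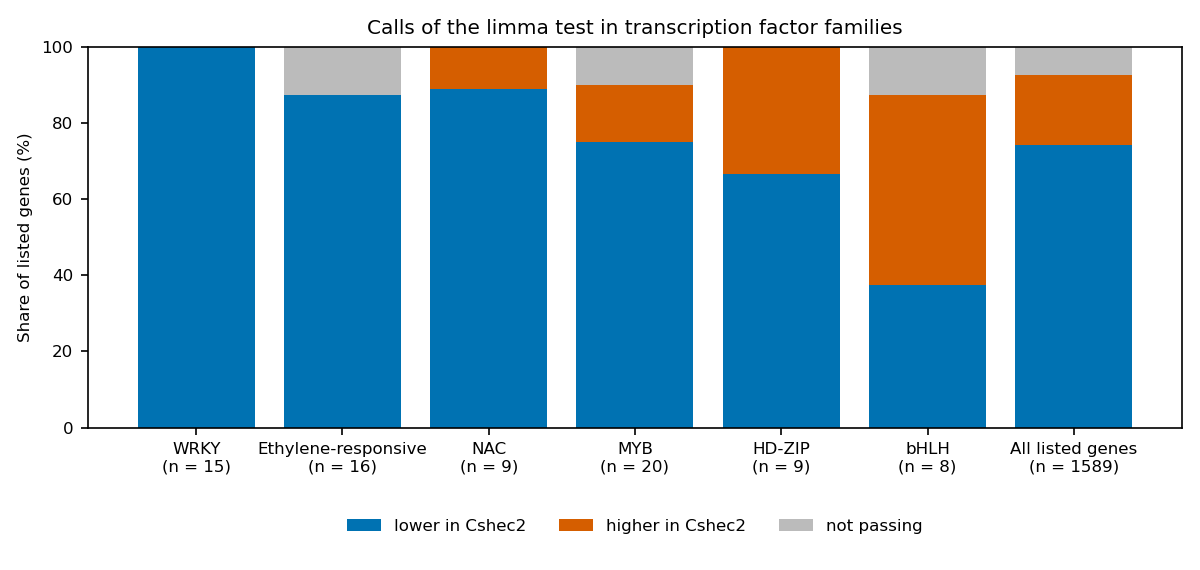
Share of listed genes (%) called lower (blue) or higher (orange) in Cshec2, or not passing (grey), in the WRKY and ethylene-responsive families, in the 4 other transcription factor families with at least 8 listed genes and among all 1589 listed genes. All 15 WRKY genes are in the blue part, 2 of the 16 ethylene-responsive genes are in the grey part, and all listed genes reach 74.3% lower.

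Genes for ethylene synthesis, the hormone after which one of the families is named, were described for 7 listed genes, of which 1 was called higher and 6 lower, where 18.4% and 74.3% of all listed genes were. After median-of-ratios scaling 1 was higher and 2 were lower, against 18.4% and 14.2% of all listed genes. Their median log2 change was -1.10. The 4 with the smallest p-values were all described as homologs of 1-aminocyclopropane-1-carboxylate (ACC) oxidase, relatives of the enzyme of the last step of ethylene synthesis that are not established to carry out that step. Csa3G135720 measured 0.456 ± 0.140 in Cshec2 and 2.90 ± 0.596 in wild type (SD, n = 3 for all such values), its log2 change being -1.42 (SE 0.15, limma adjusted p = 0.000987). Csa3G135740 measured 0.519 ± 0.211 against 2.75 ± 0.459, Csa3G135730 measured 1.46 ± 0.307 against 4.29 ± 0.909, and Csa3G135750 measured 0.829 ± 0.244 against 2.29 ± 0.405. These 4 genes carry neighbouring identifiers, and how reads were assigned between them is not stated. Of the remaining 3, named after their values were seen, Csa6G421630, described as ACC oxidase 1 itself, measured 4.06 ± 0.320 in Cshec2 and 8.75 ± 2.09 in wild type. Csa2G353460, described as an ACC synthase, which makes the ethylene precursor, lay at 0.757, 0.778 and 1.04 in Cshec2, against 0.787, 11.9 and 14.5 in wild type. As in ERF106, wild type library 1 lay within the Cshec2 range, and the call (log2 change -1.94, SE 0.78, limma adjusted p = 0.0459) was lost on leaving out each library in turn except wild type library 1 (adjusted p between 0.0886 and 0.144). The gene called higher was Csa6G446510, described as S-adenosylmethionine synthase 4, at 4.15 ± 0.131 in Cshec2 and 2.50 ± 0.365 in wild type (log2 change 0.56, SE 0.15, limma adjusted p = 0.0128).

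Keywords for partners of WRKY factors and for MAP kinases matched 7 listed genes, called WRKY partners and kinases below. A match does not establish that a gene acts with WRKY factors. All 7 were called lower, against 74.3% of all listed genes. After median-of-ratios scaling 2 were called lower, against 14.2% of all listed genes. The median log2 change of the list was -1.03. MPK3 is a kinase of Arabidopsis immunity that phosphorylates WRKY33. Csa1G479630, described as MPK3, measured 3.61, 3.62 and 3.09 in Cshec2, against 10.1, 9.01 and 14.9 in wild type (log2 change -1.45, SE 0.21, limma adjusted p = 0.00227). Sigma factor binding proteins carry a VQ motif through which they bind WRKY33. Csa4G431960, described as sigma factor binding protein 1, measured 2.16, 1.83 and 1.88 in Cshec2 and 8.13, 3.93 and 7.93 in wild type (log2 change -1.32, SE 0.26, limma adjusted p = 0.00535). Csa7G433180, described as a MAPK kinase substrate protein, was at 0.312 ± 0.153 in Cshec2 and 3.02 ± 0.422 in wild type, and Csa6G490950, described as the kinase MAPKKK17, at 0.554 ± 0.205 in Cshec2 and 1.59 ± 0.470 in wild type. The list's count of calls, all lower, was 4 of 7 without Cshec2 library 3 or without wild type library 2. Among all listed genes 53.5% and 61.1% were then called lower.

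Keywords for pathogenesis-related genes matched 15 listed genes, among them chitinases and glucanases, which GCC-box and W-box factors are known to regulate. A regulator named after such genes can match as well. Of the 15 genes, 2 were called higher and 12 lower. The 12 make up 80.0% of the list, near the 74.3% of all listed genes. The list's median log2 change was -1.34. Cucumis_sativus_newGene_263, described as an MLP-like protein, measured 0.940 ± 0.409 in Cshec2 and 11.6 ± 1.35 in wild type. Csa5G155450, described as a thaumatin-like protein, an antifungal class, measured 0.397, 0.564 and 0.732 in Cshec2 and 11.5, 6.94 and 22.4 in wild type (log2 change -3.09, SE 0.38, limma adjusted p = 0.00129). The chitinase genes Csa5G139730 and Csa1G534750 were at 0.791 ± 0.459 and 0.147 ± 0.0713 in Cshec2, against 7.42 ± 2.22 and 1.50 ± 0.363 in wild type. Both genes called higher, named after their values were seen, were described as glucan endo-1,3-beta-glucosidases, Csa1G560700 at 71.3 ± 0.985 in Cshec2 and 43.9 ± 2.68 in wild type, and Csa6G523410 at 5.42 ± 0.278 in Cshec2 and 2.19 ± 0.362 in wild type. After median-of-ratios scaling 2 genes of the list were higher and 8 lower (53.3%), against 14.2% of all listed genes called lower.

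Immune regulators and resistance proteins comprised 18 listed genes, of which 0 were called higher and 15 lower, with a median log2 change of -0.85. The 15 make up 83.3% of the list, against 74.3% of all listed genes. Csa6G518200, described as MLO-like protein 6, a membrane protein of a family known for powdery mildew susceptibility, measured 1.35 ± 0.351 in Cshec2 and 7.39 ± 1.58 in wild type. Csa5G623470, described as MLO-like protein 12, measured 6.39 ± 1.27 in Cshec2 and 34.4 ± 12.1 in wild type. A further MLO-like gene, Csa6G292430, measured 2.49 ± 0.274 in Cshec2 and 7.78 ± 1.23 in wild type, and Csa3G780520, described as NDR1/HIN1-like protein 12, measured 72.1 ± 7.49 in Cshec2 and 169 ± 16.4 in wild type. After median-of-ratios scaling 0 of the 18 were higher and 3 lower (16.7%), near the 14.2% of all listed genes called lower.

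Markers of other tissues and of stress were called lower in 17 of 25 cases (68.0%), below the 74.3% of all listed genes. All 3 photosynthesis genes were called lower, and their summed values were between 109 and 125 in Cshec2 and between 165 and 213 in wild type. Of the 16 phloem protein and lectin genes, several of them lectin receptor kinases, 3 were called higher and 11 lower, with sums between 127 and 145 in Cshec2 and between 168 and 255 in wild type. Of the 6 heat shock genes, 3 were called lower and 3 did not pass, with sums between 93.1 and 101 in Cshec2 and between 126 and 189 in wild type. After median-of-ratios scaling 1 of these genes was called lower and 3 higher, all 4 of them phloem protein or lectin genes. None of these genes (0) was at 0 in any library, and the part of these genes' tissues and states in the WRKY and ethylene-responsive values was not tested.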

How the data were processed

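RNA from 3 Cshec2 and 3 wild type female bud samples was extracted with Trizol and sequenced from Illumina libraries, according to the labels' protocols. The submitters' processing notes name DESeq2, HISAT and HISAT2, with neither role nor version. Genome build and annotation: not given in the sources used here. The deposited table lists genes that differ between the genotypes, per the file headers. Its per-library values are a normalised signal made by the authors, in a unit the header does not name. Its FDR is the adjusted p-value and its log2 fold change the log2 ratio of the authors' comparison, as deposited. Depth is unknown, so no interval or floor that needs it is given.

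Members were found by keyword in the Swiss-Prot and NR descriptions. None of their identifiers matched the RefSeq gene table (0 of 31). The genotypes were tested with limma 3.58.1 (R 4.3.3) and a variance trend on log2(value + 1), without a filter, over all 1589 genes, two-sided. The fit was also run on simulated data in which most genes had no change. Most listed genes were called, so that run is no check of the shares called here. Because the authors had selected the genes on these libraries, shares called are high throughout, and counts of calls are to be read beside those of the whole table. The members and the other lists were chosen with earlier results of these data known. Full values were given first to the members with the largest and smallest changes, the highest wild type means and the most uneven wild type libraries, and then to all others. In the other lists up to 4 passing genes with the smallest p-values were named. Alternatives were median-of-ratios scaling, no trend, a filter at a mean of 1, other pseudocounts (0.1 and 0.5), a replicate block, leaving out each library, stricter limits, domain names from the Pfam column and wild type library 1 as the only control. The same with library 2 or 3 was added after the data had been seen. Figures were drawn with matplotlib 3.10.9.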

Additional observations from a re-analysis of the deposited data

How the results depend on the processing

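Of the 31 member changes, the calls and directions were the same without the variance trend, with a mean of at least 1 and with pseudocounts of 0.1 and 0.5. Leaving out 1 library gave 18 to 28 passing members, 12 to 15 of them WRKY and 6 to 13 ethylene-responsive genes. The lowest counts came without a Cshec2 library, when calls over the whole table also fell, to between 68.5% and 70.7%. In the other lists that range was 1 to 2 for RAV genes, 4 to 7 for WRKY partners and kinases and 13 to 24 for tissue and stress markers. Median-of-ratios scaling left 6 members (5 WRKY and 1 ethylene-responsive), all lower, and family medians of -0.41 and -0.22. Over all listed genes it left 14.2% called lower and 18.4% called higher. It left 1 higher and 2 lower of 7 ethylene synthesis genes and 1 lower of 2 RAV genes. It left 2 lower of 7 WRKY partners and kinases and 3 lower of 18 immune regulators. Among 61 other transcription factors it left 15 higher and 10 lower, and among 25 tissue and stress markers 3 higher and 1 lower. It turned the log2 changes of Csa6G327430 to 0.0175, Csa6G366370 to 0.11, Cucumis_sativus_newGene_1610 to 0.15, Csa2G279260 to 0.18 and Csa3G019400 to 0.21, by its construction. Against wild type library 1 alone Csa5G167110 turned to 0.0440 and Csa6G091830 to 0.16, and 1 RAV gene and 4 WRKY partners and kinases passed. Against library 3 alone the ethylene-responsive median was -1.62, and with a pseudocount of 0.1 the WRKY median was -1.42. A limit of 0.01 left 15 members (40.0% of all listed genes were lower at it). A 2-fold limit left 18 (32.0% of all listed genes were lower at it). With the Pfam column 32 of 34 passed, against 92.7% of all listed genes. By the authors' FDR 31 of 31 passed, which was fixed in advance, as the highest FDR of the listed genes was 0.049954. Whether replicate numbers pair the samples is not stated. Deviations from the genotype means correlated at -0.09, -0.04 and -0.18 for like numbers 1 to 3. For unlike numbers they correlated at between -0.068 and 0.1637. With 3 libraries per genotype and genes selected on them, these values cannot settle it. With the replicate block 27 members passed, against 87.6% of all listed genes, and Cucumis_sativus_newGene_1610 and Csa3G895680 did not.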

Other observations

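A further 3 genes carry an AP2 domain in the Pfam column but no ethylene-responsive name in their descriptions. RAV factors, which join an AP2 to a B3 domain, are known as repressors of growth and flowering. CsaUNG031640, described as RAV1, measured 3.48, 3.12 and 2.82 in Cshec2 libraries, against 9.75, 12.2 and 31.7 in wild type libraries. It fell by 2.01 on the log2 scale (SE 0.41, limma adjusted p = 0.00544), and it was still lower after median-of-ratios scaling (log2 change -1.21, limma adjusted p = 0.0275). Csa5G608380, described as RAV2, measured 1.70, 1.41 and 1.14 in Cshec2 and 1.72, 15.5 and 35.2 in wild type. Its wild type library 1 was level with the highest Cshec2 library, and its call (log2 change -2.29, SE 0.86, limma adjusted p = 0.0377) was lost on leaving out each library in turn except wild type library 1 (adjusted p between 0.0795 and 0.11).

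Csa6G133770, described as PTI6, a tomato activator of pathogenesis-related genes through the GCC box, measured 7.40, 6.68 and 6.59 in Cshec2, against 8.98, 19.6 and 38.0 in wild type. The order of the wild type libraries was that of the GCC-box type genes ERF1A, ERF098, ERF106, ERF113 and tobacco ERF4. It was not particular to that type. The members described as RAP2-4, RAP2-1, ERF043, rice WRKY24, WRKY23, WRKY31, WRKY54 and WRKY69 had it too, as did Csa4G051470, described as WRKY41. The call of Csa6G133770 (log2 change -1.34, SE 0.46, limma adjusted p = 0.027) did not hold with every library left out. It was lost without any 1 of the Cshec2 libraries or without wild type library 2 (adjusted p between 0.0636 and 0.072). In the MADS genes of the table wild type library 3 was likewise at least 2-fold above library 1, in 3 of 3.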
